A study of Homo sapiens with 6 samples.

Results

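The polyamine metabolism genes described here are the 10 genes ODC1, SRM, SMS, AMD1, SAT1, SMOX, PAOX, AZIN1, OAZ1 and OAZ2, chosen by gene symbol out of 26255 genes listed in each sample. Their mRNA was measured by RNA-seq in 22RV1 cells, a human castration-resistant prostate cancer (CRPC) cell line, kept in full medium that contains androgen. The cells were treated for 24 h with 10 nM bruceantin (BCT), a plant quassinoid known to block protein synthesis and studied here as an inhibitor of HSP90, or with DMSO as vehicle. There were 3 samples in each group, all of 1 cell line, and no agent or genotype other than BCT set the groups apart. The labels do not say whether the samples came from separate cultures, so the p-values measure only the spread between these samples.

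Polyamines are small positively charged molecules that bind nucleic acids and that dividing cells need. ODC1, ornithine decarboxylase, makes putrescine from ornithine, and AMD1, adenosylmethionine decarboxylase, makes the aminopropyl donor that SRM uses to turn putrescine into spermidine and SMS uses to turn spermidine into spermine. In the other direction, SAT1 acetylates spermidine and spermine, PAOX oxidises the acetylated forms, and SMOX oxidises spermine itself and releases hydrogen peroxide. The antizymes OAZ1 and OAZ2 bind ODC1 protein and send it to the proteasome, and AZIN1, a relative of ODC1 without its enzyme activity, binds the antizymes in its place. The prostate is known for making and secreting large amounts of spermine. Much of the control of ODC1, AMD1, SAT1 and the antizymes takes place in translation and protein turnover, which mRNA levels do not show.

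In BCT-treated cells, SMS mRNA was 3.28-fold lower and SAT1 mRNA 3.33-fold higher than with DMSO, SMOX rose 3.19-fold from a low level and SRM fell 1.83-fold. ODC1 moved little and upwards, by 1.24-fold, while AMD1, AZIN1 and PAOX were 1.72-fold, 1.52-fold and 1.52-fold lower. The changes in OAZ1 and OAZ2 were the smallest of the 10. The values are FPKM, which divides the fragments of a gene by its transcript length and by the mapped reads of the sample, so levels of different genes can be set side by side. A gene was called lower or higher when limma, fitted on log2(FPKM + 0.1) to the 12729 genes that averaged 1 FPKM or more over the 6 samples, gave an absolute log2 fold change above 0.85 and a Benjamini-Hochberg adjusted p below 0.05. By this rule 4 of the 10 genes were called, against 31.6% of all genes tested. SRM and SMS, 2 of the 10, were called lower, against 17.8% of all genes, and SAT1 and SMOX, again 2 of the 10, were called higher, against 13.9%. Without the fold change threshold 9 of the 10 passed (82.1% of all genes), 6 of them lower with BCT (42.8% of all genes) and 3 higher (39.3%). The groups also did not overlap in 9 of the 10 (85.3% of all genes), with BCT below DMSO in 6 (44.3%) and above in 3 (41%). With both directions counted, these shares are near those of all genes. Over the 10 genes the log2 fold changes had a median of -0.45, and over all genes tested one of -0.038. All 10 were tested, but SMOX passed the filter on low values only through its BCT samples, as its DMSO mean was 0.887 FPKM. In bulk RNA, fewer cells of a kind and less RNA in each cell cannot be told apart.

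**Figure D1:**
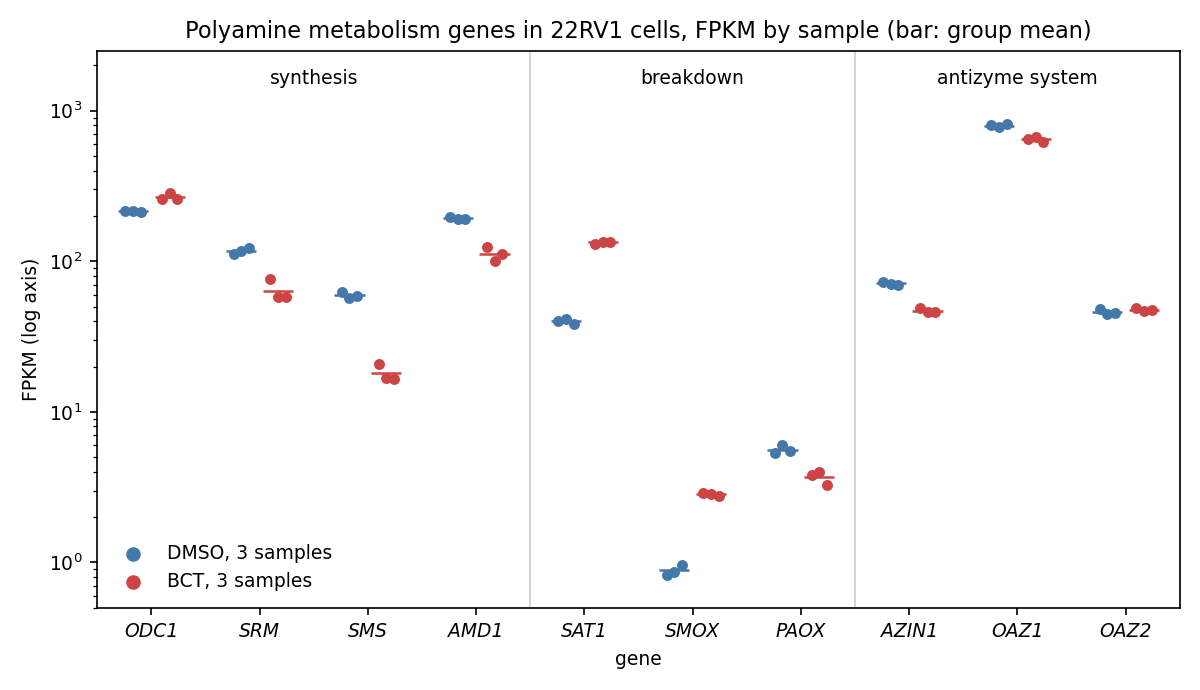
FPKM (log axis) of the 10 polyamine metabolism genes in each of the 3 DMSO (blue) and 3 BCT (red) samples, with a bar at each group mean. SMS dropped from 59.4 to 18.1 FPKM on average and SAT1 rose from 40.0 to 133.4 FPKM, while the samples of the groups overlapped in OAZ2 alone.

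Some facts of the libraries bear on these values. The FPKM files hold no read counts, so depth is known only relative to DMSO replicate 1, at 0.878 to 1 with DMSO and 1.05 to 1.13 with BCT. The summed FPKM of a sample was 1169650 to 1572320 with DMSO and 757534 to 799838 with BCT, and 31.7% to 55.3% of it came from the single gene MIR6087. Forcing equal sums therefore moves every other gene, and doing so took the all-gene median of the log2 fold change from -0.038 to 0.72. The values were used as deposited, and log2 fold changes relative to that median are given where the scaling matters. BCT replicate 1 was the BCT sample nearest to the DMSO mean in 73.6% of the 10854 genes whose groups did not overlap, and in 5 of the 9 such polyamine genes. Of 10 marker genes of prostate luminal epithelium, all 10 were above 0 in every sample and 9 were at 1 FPKM or more in every sample. Their summed level was 899 to 907 FPKM with DMSO and 1849 to 2020 FPKM with BCT, where KRT8 and KRT18 were called higher and KLK2, KLK3, TMPRSS2 and STEAP2 lower. Among 8 markers of blood, endothelial and stromal cells, 7 stayed at or below 0.192 FPKM, and the other one, the collagen gene COL1A1, was at 1.23 to 1.55 FPKM with DMSO and 5.04 to 6.31 FPKM with BCT. The summed level of these 8 markers was 1.67 to 1.73 FPKM with DMSO and 5.30 to 6.61 FPKM with BCT, 4 of them were at 0 in at least 1 sample, and the part of either marker list in the changes of the polyamine genes was not tested.

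SMS, the spermine synthase gene on the X chromosome (hg19, 21958691 to 22012955), had the largest fall of the 10. It stood at 62.6, 57.2 and 58.5 FPKM in the DMSO samples and at 20.9, 16.9 and 16.5 FPKM in the BCT samples. Every BCT sample was thus far below every DMSO sample, with BCT replicate 1 the highest of them. The log2 fold change was -1.72 (standard error 0.092, limma adjusted p = 1.25e-06), and 4.34% of all genes tested had a lower value. Relative to the median of all genes it stayed between -1.68 and -1.67 under 5 scalings of the samples. Of the stretches of 100 bases, the read length, in its longest coding transcript, 7.92% also occurred in another annotated transcript.

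SRM, which makes the spermidine that SMS uses, lies on chromosome 1 from 11114649 to 11120091. Its level was 112.0, 116.9 and 121.7 FPKM with DMSO and 76.3, 57.7 and 57.6 FPKM with BCT. The groups did not overlap, but BCT replicate 1 was well above BCT replicates 2 and 3. The log2 fold change of -0.88 (standard error 0.11, limma adjusted p = 7.41e-05) lay just past the threshold of 0.85. Its call rested on these settings, as the log2 fold change was -0.82 without BCT replicate 2, -0.81 without BCT replicate 3 and -1.02 without BCT replicate 1.

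AMD1, the source of the aminopropyl donor for both SRM and SMS, lay just on the other side of the threshold. The DMSO samples held 196.5, 191.1 and 191.8 FPKM and the BCT samples 125.0, 100.6 and 111.1 FPKM, with no overlap and a wider spread with BCT. Its log2 fold change was -0.79 (standard error 0.076, limma adjusted p = 2.02e-05), and without BCT replicate 1 it was -0.87 and past the threshold. The 95% confidence intervals of SRM, from -1.13 to -0.64, and AMD1, from -0.96 to -0.61, both span the threshold. The interval deposited for AMD1 on chromosome 6, from 110931181 to 111216915, is shared with its neighbor CDK19. In the GENCODE annotation on GRCh37, AMD1 starts only at 111195973 and CDK19 ends at 111137161, on the opposite strand. CDK19, a kinase gene of the Mediator complex, was listed with its own values, 25.4 ± 0.412 FPKM with DMSO and 14.8 ± 1.37 FPKM with BCT (SD, n = 3 each), with -0.78 as its log2 fold change.

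ODC1, the first enzyme of the pathway, did not follow the other synthesis genes. Its DMSO samples were at 216.9, 216.5 and 211.3 FPKM and its BCT samples at 258.3, 283.2 and 258.1 FPKM. All BCT samples were above all DMSO samples, with BCT replicate 2 the highest. The log2 fold change of 0.31 (standard error 0.053, limma adjusted p = 0.000614) passed the FDR but not the fold change threshold, and 66.4% of all genes tested had a lower value. ODC1 lies on chromosome 2 from 10580497 to 10588680, and SNORA80B, a small RNA gene listed with the same interval, was at 0 in all samples.

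Added up, the FPKM of the 4 synthesis genes came to 582 to 588 with DMSO and 443 to 481 with BCT. The part of ODC1 in it was 36.2% to 37.2% in the DMSO samples and 53.8% to 61.8% in the BCT samples. Over the same samples the share of SMS went from between 9.84% and 10.6% to between 3.69% and 4.35%, and that of SRM from between 19.0% and 20.9% to between 12.6% and 15.9%. AMD1 held 32.9% to 33.4% with DMSO and 21.9% to 26.02% with BCT. A common factor on all genes of a sample leaves these shares as they are.

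The breakdown genes SAT1 and SMOX rose and PAOX did not. SAT1, on the X chromosome from 23801275 to 23804340, was at 40.1, 41.4 and 38.6 FPKM under DMSO, against 130.0, 135.0 and 135.1 FPKM under BCT. Both groups were tight and far apart. The log2 fold change was 1.73 (standard error 0.048, limma adjusted p = 1.59e-07), and 3.05% of all genes tested had a higher value. In order of mean level among the 10 genes, SAT1 went from the eighth with DMSO to the third with BCT, above AMD1 and SRM.

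SMOX, on chromosome 20 from 4129426 to 4168394, was the least abundant of the 10 genes in both groups. It was listed at 0.826, 0.865 and 0.969 FPKM under DMSO, against 2.89, 2.84 and 2.76 FPKM under BCT, so the groups were again apart. Its log2 fold change of 1.57 (standard error 0.12, limma adjusted p = 4.73e-06) is on the log2(FPKM + 0.1) scale and understates the change of so low a gene. The ratio of SAT1 to SMOX was 39.8 to 48.6 with DMSO and 44.9 to 48.9 with BCT. These ranges overlap, and the mean log2 ratio differed by 0.058 (pooled SD 0.12, n = 3 each).

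PAOX, which acts after SAT1 on the acetylated polyamines, lies on chromosome 10 from 135192741 to 135205200. It was at 5.36, 5.98 and 5.54 FPKM under DMSO, against 3.80, 3.98 and 3.29 FPKM under BCT. The groups did not overlap, and the log2 fold change of -0.60 (standard error 0.090, limma adjusted p = 0.000287) did not reach the fold change threshold. Of the stretches of 100 bases in its longest coding transcript, 73.7% also occurred in a transcript annotated as another gene, so its level is uncertain where the counting could split such reads. The ratio of SMOX to PAOX, the oxidases, went from between 0.145 and 0.175 with DMSO to between 0.712 and 0.839 with BCT.

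None of the 3 genes of the antizyme system was called, against 31.6% of all genes tested, which is little to go by with 3 genes. OAZ1, on chromosome 19 from 2269485 to 2273487, was the most abundant of the 10 genes, and 1.01% of all genes tested had a higher DMSO mean. It stood at 801.5, 776.4 and 812.3 FPKM under DMSO, against 653.4, 670.4 and 624.1 FPKM under BCT. The BCT samples were all lower, with a log2 fold change of -0.30 (standard error 0.050, limma adjusted p = 0.000598). Quantile normalization turned this to 0.29, so no direction can be given for OAZ1 across scalings. In its longest coding transcript 11.5% of the stretches of 100 bases also occurred in another annotated transcript.

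OAZ2, on chromosome 15 from 64979773 to 64995480, was at 48.5, 44.7 and 45.1 FPKM under DMSO, against 48.7, 46.5 and 47.5 FPKM under BCT. It was the single gene of the 10 whose groups overlapped. The log2 fold change of 0.05 (standard error 0.052, limma adjusted p = 0.43) had a 95% confidence interval from -0.07 to 0.16. With DMSO there was between 16.5 and 18.02 times as much OAZ1 as OAZ2, and with BCT between 13.1 and 14.4 times as much.

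AZIN1, the antizyme inhibitor gene on chromosome 8 from 103838530 to 103876428, was at 73.4, 70.8 and 69.5 FPKM under DMSO, against 49.0, 46.1 and 45.8 FPKM under BCT. The groups did not overlap, and the log2 fold change of -0.60 (standard error 0.050, limma adjusted p = 8.56e-06) was short of the threshold. AZIN1 and its relative ODC1 moved apart. The ratio of ODC1 to AZIN1 was 2.96 to 3.06 with DMSO and 5.28 to 6.15 with BCT, and that of ODC1 to OAZ1 was 0.260 to 0.279 with DMSO and 0.395 to 0.423 with BCT.

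In each group the 10 genes could be ranked by level. With DMSO the order from the highest was OAZ1, ODC1, AMD1, SRM, AZIN1, SMS, OAZ2, SAT1, PAOX and SMOX, and no neighbors in it overlapped. With BCT it was OAZ1, ODC1, SAT1, AMD1, SRM, OAZ2, AZIN1, SMS, PAOX and SMOX, where OAZ2 and AZIN1 overlapped. OAZ1 and ODC1 at the upper end and PAOX and SMOX at the lower end held their places.

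Ratios between genes of a sample are not touched by a common factor either, and 9 were compared, as values with no test. Besides those above, the ratio of SRM to SMS went from between 1.79 and 2.08 with DMSO to between 3.41 and 3.65 with BCT. AMD1 to SMS went from between 3.14 and 3.34 to between 5.95 and 6.75, and ODC1 to AMD1 from between 1.102 and 1.133 to between 2.07 and 2.82. In contrast, AMD1 to SRM overlapped, at 1.58 to 1.75 with DMSO and 1.64 to 1.93 with BCT. On the log2 scale the ratio of SRM to SMS was 0.84 higher with BCT (pooled SD 0.090, n = 3 each) and that of AMD1 to SMS 0.93 higher (pooled SD 0.080, n = 3 each). In 7 of the 9 ratios the groups did not overlap. The 9 pairs reuse the same genes, and the share over other pairs of genes was not worked out. Among single genes tested, 85.3% had groups that did not overlap, so the count is not a trait of these pairs.

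**Figure D2:**
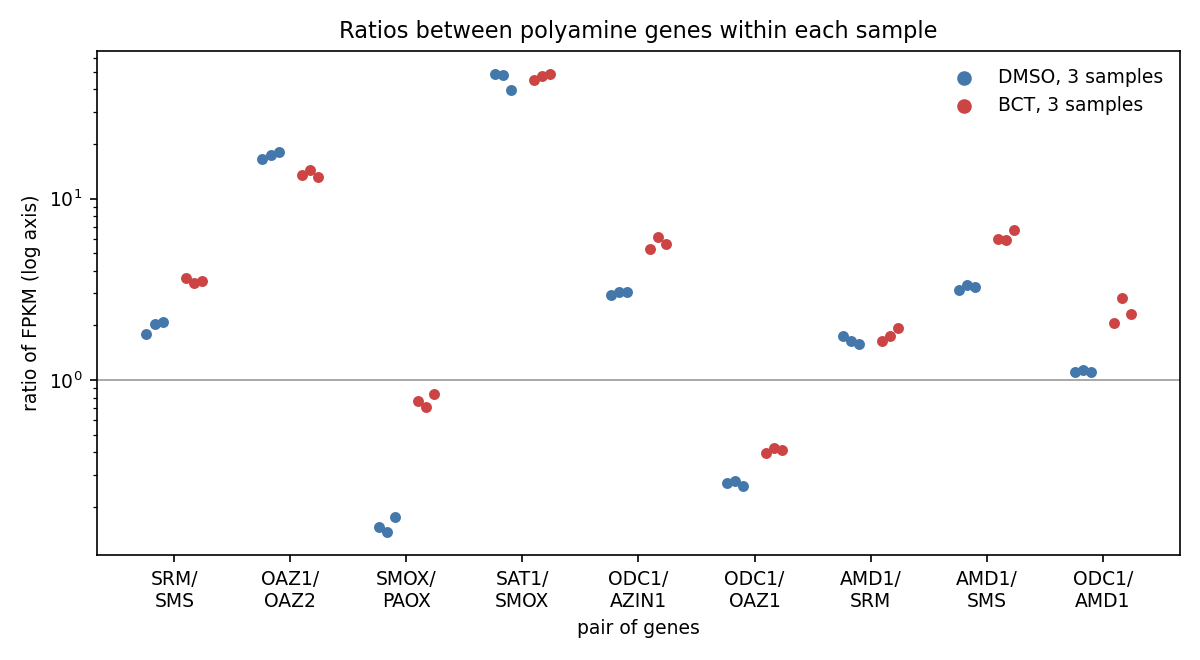
Ratio of the FPKM values of 9 pairs of polyamine genes (log axis) within each DMSO (blue) and BCT (red) sample, with a line at 1. The groups are apart in 7 pairs, such as SMOX/PAOX at 0.145 to 0.175 against 0.712 to 0.839, and overlap in SAT1/SMOX and AMD1/SRM. Groups were apart in 85.3% of single genes tested, and the share over other pairs was not worked out.

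The direction of single genes does depend on the scaling. SMS was called lower and SAT1 and SMOX were called higher under all 5 scalings, and SRM and AMD1 kept a negative log2 fold change under all 5. SMOX passed the filter on low values only through its BCT samples. The filter was set before scaling, so the 5 scalings do not test that. Rescaling to equal sums gave SRM -0.11, AMD1 -0.02, ODC1 1.08, PAOX 0.15, AZIN1 0.17 and OAZ1 0.47, with the median of all genes at 0.72. Relative to that median, SRM, SMS, AMD1, PAOX and AZIN1 were lower and ODC1, SAT1, SMOX and OAZ2 higher under all 5 scalings. OAZ1 ranged from -0.26 to 0.27 relative to the median.

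**Figure D3:**
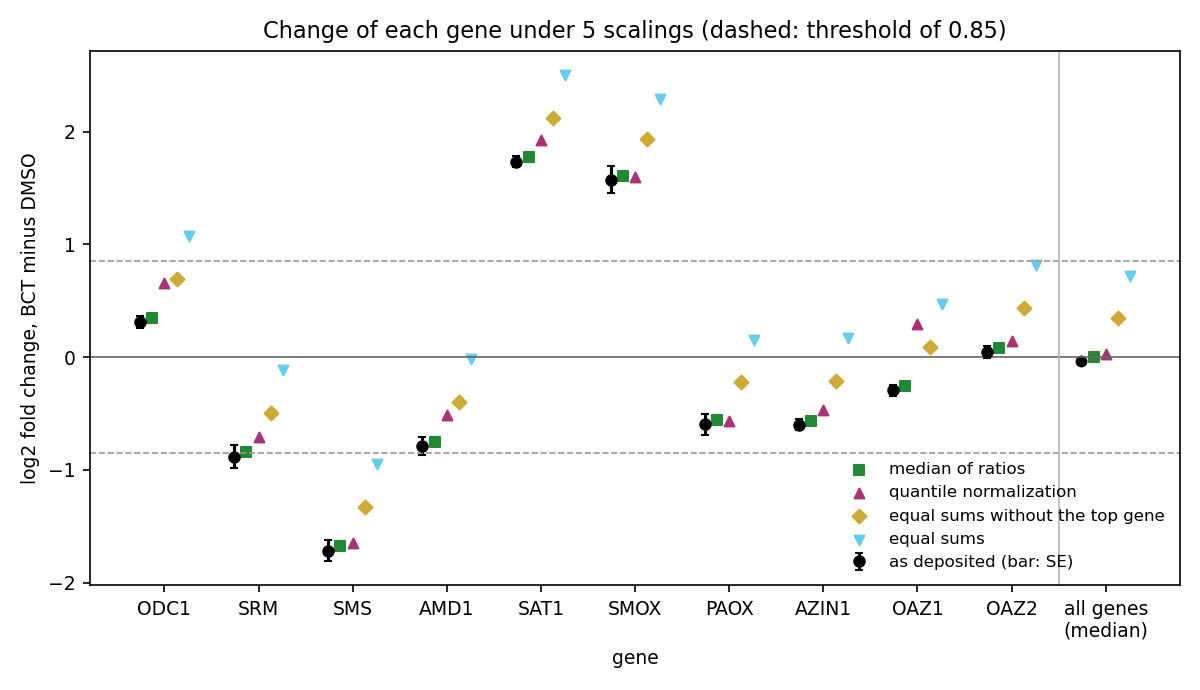
Log2 fold change (BCT minus DMSO) of each polyamine gene as deposited (black, bar: limma standard error) and under 4 other scalings of the samples, with the median of all tested genes at the right and dashed lines at the threshold of 0.85. Equal sums lift all genes, the median to 0.72, while SMS stays below -0.85 and SAT1 and SMOX above 0.85 under each.

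The DNA upstream of the genes was searched for short motifs on both strands. RefSeq promoters (table on GRCh38.p14), 250 bases before to 50 after a start, were at hand for 7 of the 10 genes. The motif CACGTG, the E-box, is bound by MYC, a transcription factor known to act on ODC1 and other polyamine genes and whose own mRNA fell from 121.9 ± 6.97 to 27.0 ± 3.90 FPKM (SD, n = 3 each). It was found in SRM and in 1 of the starts of ODC1, and in 7.26% of all 35116 RefSeq promoters. SRM was lower with BCT and ODC1 was higher. The part of MYC and of these sites in the changes was not tested. The ODC1 sites lie downstream of its other RefSeq start, and the site named E-box 1 is in an intron of 3 of the 6 annotated transcripts and in an exon of 0. E-box 2 is in an exon of 2 and in an intron of 3 of the 6. The sites are shown for these 2 genes because they share the motif and differ in direction, in lower case with CACGTG and CCAAT, or its reverse complement ATTGG, in capitals. Sequences are written 5′ to 3′ on the minus strand, where both genes lie, and were matched exactly to GRCh37 at chr2:10588142-10588191 for E-box 1, chr2:10588118-10588143 for E-box 2 and chr1:11120092-11120325 for SRM.
ODC1 E-box 1: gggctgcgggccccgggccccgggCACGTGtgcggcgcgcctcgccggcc
ODC1 E-box 2: cctgcggagaCACGTGgtcgccgagc
SRM: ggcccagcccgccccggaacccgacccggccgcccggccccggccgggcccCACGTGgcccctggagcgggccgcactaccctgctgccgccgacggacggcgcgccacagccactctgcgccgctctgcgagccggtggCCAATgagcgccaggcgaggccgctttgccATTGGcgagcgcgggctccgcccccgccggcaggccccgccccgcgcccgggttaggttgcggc

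SMS and SAT1, the genes with the largest fall and the largest rise, are on the plus strand and held no CACGTG in their RefSeq windows. Both hold CCAAT, as do SRM, OAZ1 and 1 of the starts of AMD1. That AMD1 window had no exact match around the gene on GRCh37, and the AMD1 windows that did match held no CCAAT. This box, bound by NF-Y, is in 34.6% of all promoters and was added to the search after the sequences were seen. The upstream bases outside the deposited transcripts are at chrX:21958577-21958690 for SMS and chrX:23801040-23801274 for SAT1 on GRCh37, with the box in capitals in either orientation. No RefSeq window of the 7 genes held TGATGNAA, TGACGTCA or TATGACTAA, searched on both strands, which 3.62%, 1.85% and 0.0997% of all promoters contain. DNA outside these windows was not searched, so sites farther from a start would be missed.
SMS: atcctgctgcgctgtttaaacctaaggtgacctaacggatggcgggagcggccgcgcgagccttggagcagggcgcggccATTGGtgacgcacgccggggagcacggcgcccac
SAT1: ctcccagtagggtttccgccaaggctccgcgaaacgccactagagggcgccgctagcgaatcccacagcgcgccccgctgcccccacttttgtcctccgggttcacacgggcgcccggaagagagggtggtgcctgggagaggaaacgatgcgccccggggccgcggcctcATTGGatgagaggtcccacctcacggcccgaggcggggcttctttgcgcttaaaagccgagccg

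Around these 10 genes, a list of 34 further genes covers substrate supply, salvage, transport and use of polyamines. Of these, 27 were tested and 10 were called (31.6% of all genes), 7 of them lower (17.8%) and 3 higher (13.9%), with a median log2 fold change of -0.54 against -0.038 for all genes tested. The groups did not overlap in 25 of the 27, against 85.3% of all genes. EIF5AL1 and MAT1A passed the filter on low values only through their DMSO samples.

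Of the 3 genes that make S-adenosylmethionine, the substrate of AMD1, MAT1A and MAT2A were called lower, against 17.8% of all genes tested. MAT2A, the methionine adenosyltransferase of most tissues, was at 83.5, 90.6 and 85.0 FPKM under DMSO, against 60.5, 37.6 and 43.7 FPKM under BCT, with BCT replicate 1 again the highest of its group. Its log2 fold change was -0.90, a call that was lost under 3 of the 5 scalings, and MAT1A, the form typical of liver, fell from 4.05 ± 0.370 to 0.443 ± 0.138 FPKM (SD, n = 3 each). MAT1A was the one of the 3 called under all 5 scalings, but it passed the filter on low values only through its DMSO samples. MAT2B, the regulatory subunit, had a log2 fold change of -0.70 and was not called, and with equal sums it was at 0.07.

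Making spermidine and spermine leaves methylthioadenosine, which MTAP, MRI1, APIP, ENOPH1 and ADI1 return to methionine. All 5 had negative log2 fold changes, from -0.92 for MTAP to -0.49 for ADI1, as had 6595 of the 12729 genes tested. MTAP alone was called lower, against 17.8% of all genes tested. MTAP lost its call with equal sums (-0.16) and with equal sums without the gene with the highest mean (-0.54). After rescaling to equal sums only 1 of the 5 was negative, but under all 5 scalings each of the 5 was below the median of all genes. A median has as many genes below it as above, and the 5 scalings reuse the same samples. ADI1, the most abundant of them, was at 129.4 ± 5.45 FPKM with DMSO and 92.4 ± 4.15 FPKM with BCT (SD, n = 3 each).

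Among the 5 tested genes of substrate supply, ALDH18A1, which leads from glutamate toward proline and ornithine, was the one called. It was called lower, as were 17.8% of all genes tested. With DMSO it averaged 49.8 ± 1.07 FPKM and with BCT 26.04 ± 2.06 FPKM (SD, n = 3 each), while ARG2, an arginase, was at 14.0 ± 1.04 and 13.9 ± 0.462 FPKM. ALDH18A1 lost its call with equal sums (-0.17) and with equal sums without the gene with the highest mean (-0.55), and OAT, ornithine aminotransferase, was called higher with equal sums (1.15). The log2 fold change of ARG2 had a 95% confidence interval from -0.15 to 0.15. OAZ3, a further antizyme known from testis, was called higher, from 10.5 ± 0.429 to 22.8 ± 0.887 FPKM, but its deposited interval is shared with MRPL9. SAT2, an acetyltransferase related to SAT1, had a log2 fold change of 0.50 and was not called, but was called higher under both equal-sum scalings (1.26 and 0.88). The deposited intervals of MAT2A, ARG2, APIP, SAT2, SLC47A1 and DHPS also hold other genes, and the kit does not mark strand, so reads from overlapping genes may not be told apart.

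In the transport group, among 6 tested, 2 genes were called higher, against 13.9% of all genes tested, and 1 lower, against 17.8%. ATP13A2, ATP13A3 and SLC18B1, with log2 fold changes of -0.64, -0.76 and -0.54, were not called. All were below DMSO in every BCT sample, which held for 44.3% of all genes tested. SLC3A2, the heavy chain of several amino acid transporters that has also been tied to polyamine export, was at 100.7, 107.1 and 104.2 FPKM under DMSO, against 399.7, 523.0 and 449.9 FPKM under BCT. The groups lay far apart, with a log2 fold change of 2.13 (standard error 0.091, limma adjusted p = 6.24e-07). SLC22A3, an organic cation transporter, rose from 5.17 ± 0.612 to 19.7 ± 0.932 FPKM, and SLC47A1, a cation extruder, fell from 16.3 ± 0.613 to 5.41 ± 1.502 FPKM (SD, n = 3 each). SLC3A2 and SLC22A3 were called higher under all 5 scalings, whereas SLC47A1 lost its call with equal sums at -0.84.

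Spermidine is also the source of hypusine, a modified lysine of the translation factor EIF5A that DHPS and DOHH put in place. EIF5A averaged 1114 ± 29.8 FPKM with DMSO and 443.0 ± 41.5 FPKM with BCT (SD, n = 3 each). Its log2 fold change was -1.33 (standard error 0.071, limma adjusted p = 1.20e-06), but -0.57 with equal sums and -0.76 after quantile normalization, where it was not called. EIF5AL1, a copy of EIF5A, was also called lower, but its call was lost under both equal-sum scalings. Of its stretches of 100 bases, 7.69% also occur in transcripts of other genes, EIF5A among them, so its values are uncertain. For EIF5A this share is 10.9%, with EIF5AL1 among the other genes, so the limit holds for EIF5A too. DHPS and DOHH, which carry out the modification, had log2 fold changes of -0.23 and 0.82 and were not called. DOHH was called higher under 3 of the 5 scalings, at 1.58 with equal sums, 1.202 with equal sums without the gene with the highest mean and 0.85 with the median of ratios.

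**Figure D4:**
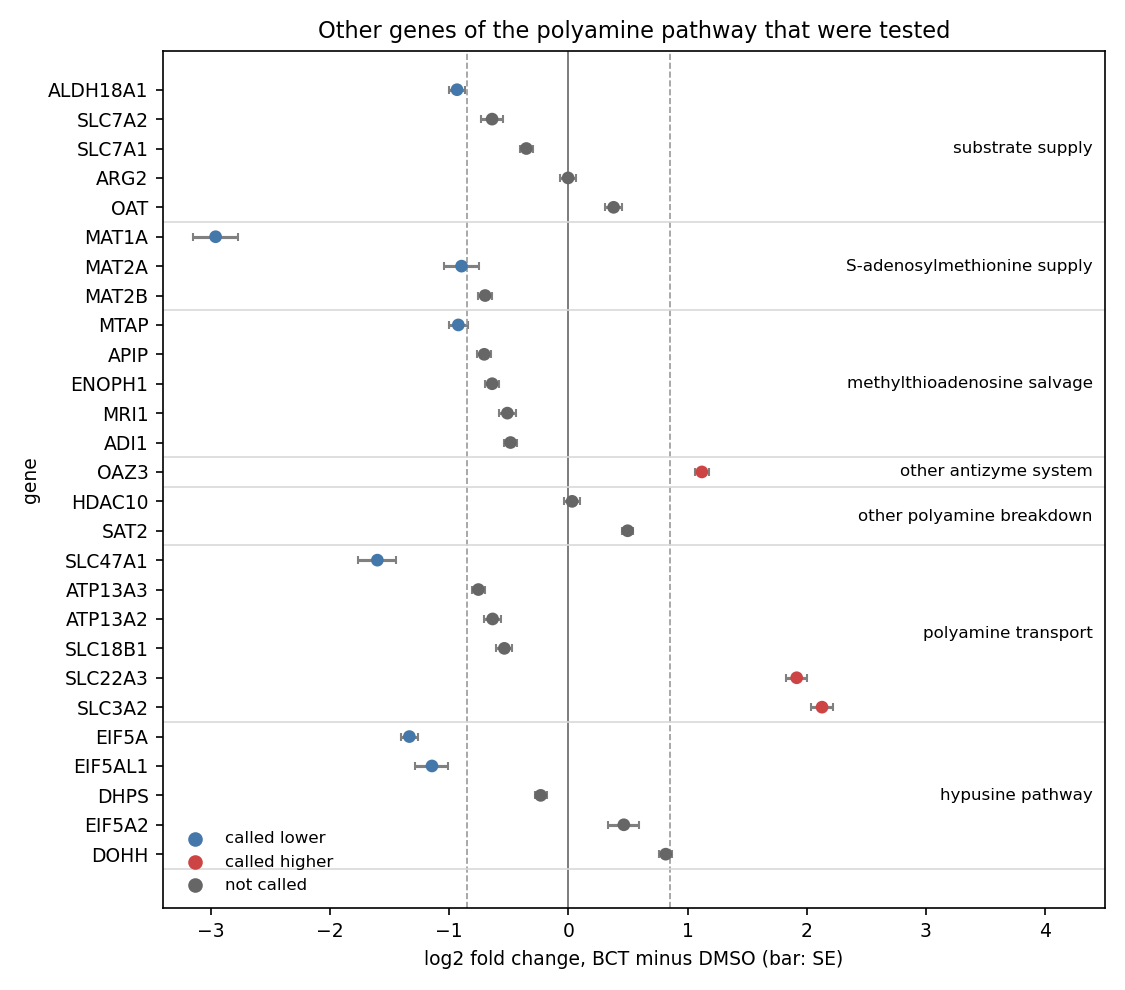
Log2 fold change (BCT minus DMSO, bar: limma standard error) of the 27 tested genes of the wider polyamine pathway, grouped by role, with dashed lines at the threshold of 0.85. The 7 genes called lower are blue and the 3 called higher, OAZ3, SLC22A3 and SLC3A2, are red.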

How the data were processed

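RNA-seq of 3 DMSO and 3 BCT samples was used. Per the study's methods, the authors trimmed the reads with Trimmomatic (0.38 per the labels), aligned them to hg19/GRCh37 with HISAT2 and assembled them with StringTie, and they deposited FPKM values per gene. The labels name HTSeq and not StringTie, so the tool behind the FPKM values, and how it treated shared reads, is uncertain. The gene annotation is not given in the sources used here. The kit does not mark strand. FPKM holds no counts, so no count test was run, and only the depth of samples relative to each other can be given.

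Values were compared as log2(FPKM + 0.1), a scale that shrinks the change of low genes, with limma 3.58.1 in R 4.3.3 (mean-variance trend) for the 12729 genes averaging 1 FPKM or more over the 6 samples, with Benjamini-Hochberg adjustment over all of them. The thresholds follow the study's results text; its methods give an FDR of 0.01. Standard errors, intervals and adjusted p-values are those of limma. The fit was tested on simulated data. Starts are the deposited ones plus 1, which equal a GENCODE transcript start in 7961 of 22088 genes, against 857 without. Promoter sequences are from RefSeq on GRCh38.p14 and were matched to GRCh37, except for the AMD1 window with CCAAT, which had no exact match around the gene.

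The 10 genes, the wider list and the tests were chosen with earlier results of these data known. All 10 genes are named; of the wider list, each called gene and the most abundant of each role, while MAT2B, ARG2, OAT, DHPS, DOHH, ATP13A2, ATP13A3, SLC18B1 and the rest of the salvage genes were named after their values were seen. Alternatives covered the pseudocount, the filter, 4 scalings, the FDR, the variance model, the replicate block and each sample left out.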

Additional observations from a re-analysis of the deposited data

How the results depend on the processing

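Of the 10 genes, SMS, SAT1, SMOX, PAOX, AZIN1, OAZ1 and OAZ2 kept their side of the threshold under all alternatives that tested them. SMOX and PAOX were not tested at a mean of at least 5 FPKM, and the loss of SMOX left 1 gene called higher. SRM lost its call under all 4 other scalings, so 1 gene was then called lower, and without BCT replicate 2 or 3. AMD1 gained a call without BCT replicate 1 and ODC1 with equal sums. Leaving out 1 sample gave 1 to 3 genes called lower. Signs turned with equal sums for PAOX (0.15), AZIN1 (0.17) and OAZ1 (0.47), and for OAZ1 also with equal sums without the gene with the highest mean (0.091) and with quantile normalization (0.29).

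In the wider list, equal sums gave 1 lower and 7 higher, and without the top gene 3 and 5. Over all genes, 2263 were lower and 1764 higher as deposited (56.2% of calls lower), 668 and 5614 with equal sums (6282 in all, 10.6% lower), and 1208 and 3370 without the top gene (26.4% lower), where the median of all genes was 0.34. With no filter 2657 genes were higher, and with a minimum of 5 FPKM 1150.

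With a pseudocount of 1 the log2 ratio of SMOX to PAOX changed by 1.52 in place of 2.29, and that of SAT1 to SMOX by 0.69 in place of 0.058, since SMOX is low. Leaving out 1 sample moved the latter between -0.035 and 0.11, negative without DMSO replicate 3.

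Deviations from the group means correlated at 0.12, 0.033 and 0.034 between same-numbered samples. Between other samples the correlation ran from -0.12 to 0.074, and was positive only for DMSO replicate 2 with BCT replicate 3. All these values are low, so the numbers were not taken as pairs, but whether they are pairs cannot be told from them. With the replicate block 4033 genes were called, 4027 of them as without it, and 2 of the 10 genes were lower and 2 higher. The cause of these changes was not tested except where SMOX left the test. FPKM without counts limits what can be said of low genes such as SMOX.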

Other observations

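Genes of the wider list under the filter on low values had no test. Chosen after their values were seen, AGMAT, an enzyme of the agmatinase family, and ATP13A4, a transport ATPase related to the polyamine transporters ATP13A2 and ATP13A3, had groups that did not overlap. This is common, as 85.3% of the genes tested had such groups, 44.3% with BCT below DMSO and 41% with BCT above. AGMAT was at 1.29, 1.33 and 1.43 FPKM under DMSO, against 0.548, 0.598 and 0.430 FPKM under BCT. ATP13A4 was at 0.097, 0.095 and 0.080 FPKM under DMSO, against 0.436, 0.395 and 0.359 FPKM under BCT. The deposited interval of AGMAT is shared with DNAJC16 and that of ATP13A4 with ATP13A4-AS1, so reads from these genes may not be told apart. ARG1 and SLC22A2 were listed at 0 in at least 1 sample of each group.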
